A study of Mus musculus with 18 samples.

Results

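Skeletal muscle contraction and calcium release are described here through 32 genes, taken by name from a list that was drawn up with earlier results of these arrays known: 10 myosin chains, 10 thin filament genes, 9 genes of calcium release and uptake, and 3 genes of the muscle membrane and of muscle gene control. Every one of the 32 had at least 1 probe set of its own on the array, 60 probe sets in all, out of 18194 genes with a probe set annotated to that gene alone. By fibre type, 3 of the 32 are embryonic or neonatal isoforms, 8 are slow isoforms, 11 are fast isoforms and 10 are shared between fibre types. RNA came from the RPE/choroid, the pigmented epithelium behind the retina with the vascular layer under it, of male C57BL6/J mice, with no genetic change named in the labels. During RNA isolation the sclera was taken out, and the methods call it likely that most of the choroid remained on it. The labels give an age of 2 months and the methods 6 to 8 weeks. Each mouse had received 1 intravitreal injection of 1 μL, holding the solvent BSS alone, 10 μg of dexamethasone (Dex) or 25 μg of triamcinolone acetonide (TAA), both synthetic glucocorticoids. Tissue was taken at day 7 or day 30, which gives 6 groups of 3 arrays, each array from a separate animal; 4 animals were injected per group, and the 3 with the best RNA were used. The steroids were thus given at different doses, and no uninjected eye is among the 18 arrays.

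In muscle, myosin heads on the thick filament pull on actin in the thin filament, and troponin with tropomyosin keeps the heads away from actin until calcium arrives. Calcium leaves the sarcoplasmic reticulum through the ryanodine receptor when the membrane is excited, and a pump takes it back. Slow fibres, fast fibres and developing fibres build the same parts from different genes, and the extraocular muscles that move the eyeball are known for holding slow, fast and developmental myosins side by side. The RPE and the choroid hold no skeletal muscle fibres, whereas the eye muscles insert on the sclera just outside them, and the methods state that muscle and connective tissue were cleaned off the back of the eye. In bulk tissue, fewer muscle fibres and less RNA of these genes per fibre cannot be told apart.

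The deposited values are log2 values set to 0 at each probe set's median over the 18 arrays. They give differences between arrays and no levels, so the amount of one gene cannot be set against that of another, and whether the defining markers of the labelled tissue were present cannot be read from them. Between arrays the mean of 10 RPE markers stayed within -0.26 and 0.21, while that of 8 choroid endothelium genes ran from -0.72 to 0.39. Other lists moved far more. The mean of 10 rod photoreceptor genes ran from -1.78 to 3.82, that of 8 surface epithelium genes from -2.15 to 2.90 and that of 9 lens crystallins from -1.81 to 3.23, within groups as well as between them. The muscle genes were themselves uneven within groups: the median SD within groups was 0.34 on the log2 scale for the 32 genes, 0.49 for the slow isoforms and 0.32 for the fast isoforms, against 0.14 for all 18194 genes.

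Promoter sequences of 5 genes are shown because they belong to isoforms with the contrast of slow or embryonic against fast described below, and both genes of each pair had an entry: the embryonic myosin Myh3, the slow and fast regulatory light chains Myl2 and Mylpf, and the slow and fast troponin C genes Tnnc1 and Tnnc2. Each is the 250 bases before the RefSeq start on GRCm38.p6, read 5′ to 3′ on the gene's own strand, with every match to the E-box CANNTG in capitals, the short motif that the MyoD family of muscle regulators binds. The windows are chr11:67078050-67078299 on the plus strand for Myh3, chr5:122092474-122092723 on the plus strand for Myl2, chr7:127211358-127211607 on the plus strand for Mylpf, chr14:31208062-31208311 on the plus strand for Tnnc1 and chr2:164779735-164779984 on the minus strand for Tnnc2.
Myh3: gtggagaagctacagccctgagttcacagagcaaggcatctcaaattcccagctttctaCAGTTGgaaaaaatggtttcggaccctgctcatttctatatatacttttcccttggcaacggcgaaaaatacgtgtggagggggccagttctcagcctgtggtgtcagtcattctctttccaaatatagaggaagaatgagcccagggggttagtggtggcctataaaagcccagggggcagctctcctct
Myl2: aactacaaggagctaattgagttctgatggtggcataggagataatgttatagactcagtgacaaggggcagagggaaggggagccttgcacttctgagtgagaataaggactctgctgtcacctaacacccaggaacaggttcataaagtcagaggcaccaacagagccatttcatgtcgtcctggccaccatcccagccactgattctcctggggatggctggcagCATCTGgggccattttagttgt
Mylpf: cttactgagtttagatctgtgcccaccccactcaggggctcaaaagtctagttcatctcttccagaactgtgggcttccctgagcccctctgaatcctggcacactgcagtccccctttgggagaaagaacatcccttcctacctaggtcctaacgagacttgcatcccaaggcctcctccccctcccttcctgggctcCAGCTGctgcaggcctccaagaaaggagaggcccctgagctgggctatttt
Tnnc1: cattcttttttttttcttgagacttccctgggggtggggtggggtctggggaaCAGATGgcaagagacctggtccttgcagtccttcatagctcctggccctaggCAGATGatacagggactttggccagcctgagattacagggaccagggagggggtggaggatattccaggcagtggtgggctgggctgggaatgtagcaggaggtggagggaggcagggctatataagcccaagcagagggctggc
Tnnc2: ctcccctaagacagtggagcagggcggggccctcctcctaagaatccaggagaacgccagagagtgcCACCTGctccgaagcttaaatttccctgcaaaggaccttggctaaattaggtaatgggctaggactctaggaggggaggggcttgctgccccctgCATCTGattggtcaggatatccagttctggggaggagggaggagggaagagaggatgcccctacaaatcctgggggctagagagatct

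Of the 32 genes, 26 had an entry among 32851 promoters of the same length, and Tnnt3, Tnni2, Trdn, Asph, Sln and Abra had none. CANNTG, which reads the same on both strands, was present in 21 of the 26 (80.8%) and in 66.2% of all promoters, and it was present in 3 of 3 embryonic, 8 of 8 slow, 6 of 9 fast and 4 of 6 shared promoters. The MEF2 box was found on either strand in 5 of 26 (19.2%) against 2.92% of all promoters, and the CArG box, the serum response element core, in 3 of 26 (11.5%) against 1.47%. TATAAA, searched on both strands and able to overlap a MEF2 box, was found in 7 of 26 (26.9%) against 12.4%. These are letter matches in 1 window per gene.

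At day 7 muscle genes were lower after each of the 2 steroids at the study's thresholds, and the genes that met them differed in fibre type. Differences were tested with limma over all 18194 genes, and calls were counted at a Benjamini-Hochberg adjusted p under 0.05 and, beside it, at the thresholds of the study's methods, an unadjusted p not above 0.05 together with a fold of at least 1.5. After Dex, 8 of 32 genes were lower at the study's thresholds, where 0.0769% of all genes were: Myh3, Myh8, Myh7, Myl2, Tnnt1, Tnnc1, Tpm3 and Sln. Of these, 2 are embryonic, 5 slow and 1 shared, and 0 of 11 fast isoforms met the thresholds. After TAA, 17 of 32 were lower at the same thresholds, where 0.456% of all genes were, and these held 2 of 3 embryonic, 2 of 8 slow, 7 of 11 fast and 6 of 10 shared genes. Such class counts also depend on the spread within groups, which was larger for slow than for fast isoforms (median SD 0.49 against 0.32). The median differences after TAA were -0.62 for slow and -0.66 for fast isoforms. TAA against Dex at day 7, at doses that differ, gave 9 of 32 lower in TAA, where 0.297% of all genes were, and 8 of the 9 are fast isoforms. No member was higher at these thresholds in any of the 3 comparisons. The Dex and TAA comparisons use the same 3 BSS arrays.

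None of these differences passed the correction over all genes. At an adjusted p under 0.05, limma called 0 members in each of the 3 comparisons, beside 0% of all genes for Dex, 0.0055% (1 gene, no member) for TAA and 0% for TAA against Dex, and the smallest adjusted p of a member was 0.991. At an unadjusted p not above 0.05 there were 9 members for Dex (1.83% of all genes), 19 for TAA (4.23%) and 10 for TAA against Dex (2.49%). The methods' unpaired t-test gave 0 members after Benjamini-Hochberg adjustment in all 3 comparisons. The median difference of the 32 genes was -0.22 for Dex, -0.66 for TAA and -0.36 for TAA against Dex, on the log2 scale, where the median of all genes lay within 0.0024 of 0. All 32 members were below 0 for TAA, beside 9126 of 18194 genes, and 23 of 32 for Dex, beside 8948 of 18194.

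**Figure D1:**
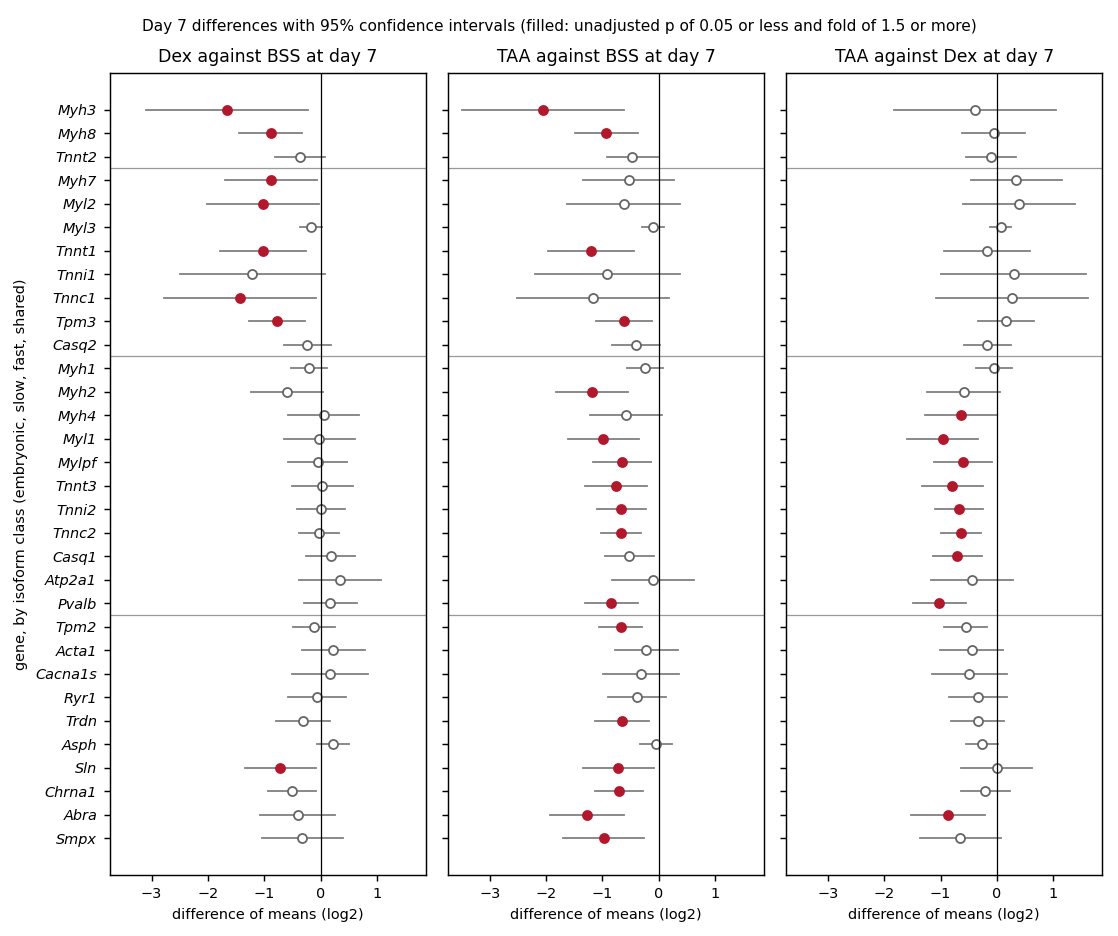
Difference of group means at day 7 in log2 units (x axis) for each of the 32 genes (y axis, grouped as embryonic, slow, fast and shared isoforms), with 95% confidence intervals from limma. Filled points, which meet the study's thresholds, are embryonic or slow genes and the shared gene Sln for Dex (8 genes), in every class for TAA (17 genes) and mostly among fast genes for TAA against Dex (9 genes).

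The medians of slow and fast isoforms lay apart for Dex and for TAA against Dex, and close together for TAA against BSS; the classes were not tested against each other. For the 8 slow isoforms the median difference was -0.95 after Dex and -0.62 after TAA, and TAA against Dex gave 0.21, with 0 of 8 at the thresholds and wide intervals such as -1.08 to 1.62 for Tnnc1. For the 11 fast isoforms it was 0.01 after Dex, with 6 genes above and 5 below 0, -0.66 after TAA with all 11 below 0, and -0.64 for TAA against Dex. The 3 embryonic isoforms had medians of -0.88, -0.93 and -0.10 in the same 3 comparisons, and the 10 shared genes -0.21, -0.66 and -0.39. In class terms, the mean over fast isoforms on the 3 BSS arrays of day 7 was 0.19, 0.19 and -0.01, on the Dex arrays 0.31, -0.16 and 0.18, and on the TAA arrays -0.26, -0.65 and -0.70. Thus the TAA arrays lay below all BSS and Dex arrays of day 7, while the BSS and Dex arrays overlapped. The mean over slow isoforms was 0.18, 0.31 and 0.32 after BSS, -1.10, -0.78 and 0.15 after Dex, and -0.25, -0.60 and -0.43 after TAA. Here both steroid groups lay below BSS, and the third Dex array stood close to the BSS arrays while the other Dex arrays were the lowest of all.

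**Figure D2:**
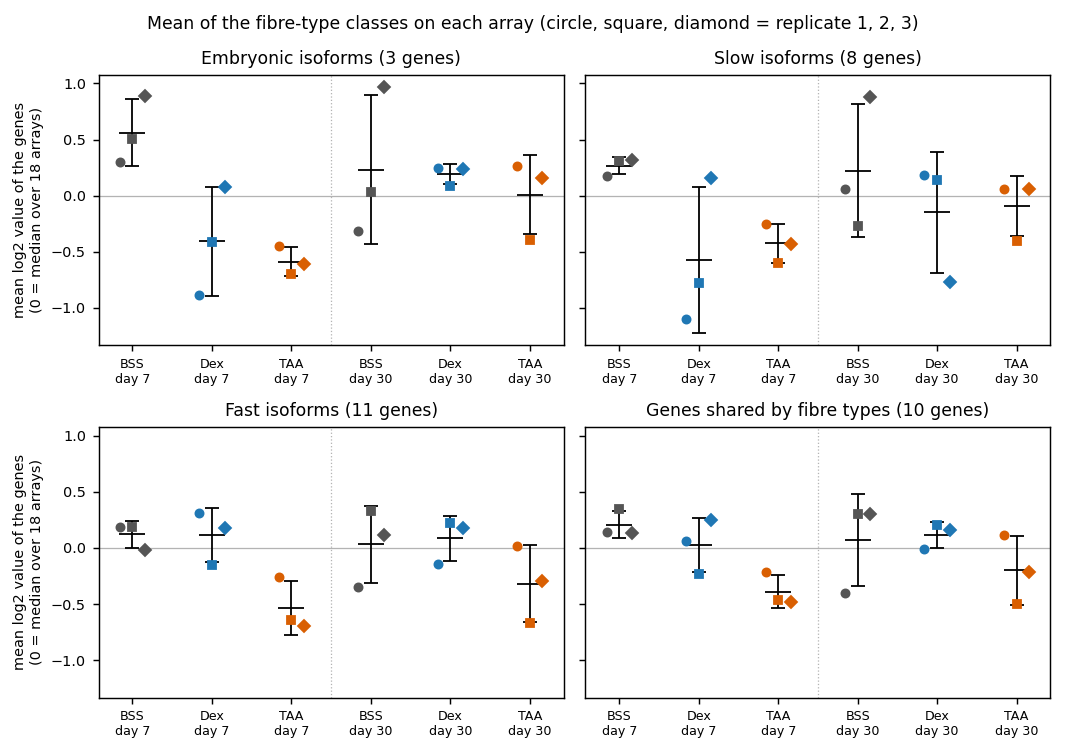
Mean log2 value of the genes of each fibre-type class (y axis, 0 is the median over 18 arrays) on each array by group (x axis), with the group mean and SD of 3 arrays as black bars. At day 7 the slow isoforms are lowest on Dex replicates 1 and 2 (-1.10 and -0.78), and the fast isoforms are lowest on the TAA arrays (-0.26 to -0.70).

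Among the myosin heavy chains, the motor subunits, Myh3 moved most. Myh3, the embryonic heavy chain, read 0.03, 0.55 and 1.20 after BSS at day 7, -2.71, -0.87 and 0.37 after Dex, and -1.24, -1.44 and -1.68 after TAA. The TAA arrays lay below all BSS arrays and the Dex arrays overlapped with them. Its difference was -1.66 ± 0.67 (SE; 3.17-fold lower) for Dex and -2.05 ± 0.67 (4.14-fold lower) for TAA in limma (unadjusted p = 0.026 and 0.0083). Myh8, the neonatal heavy chain, read 0.65, 0.48 and 1.05 after BSS, -0.08, -0.33 and -0.06 after Dex, and 0.02, -0.50 and -0.15 after TAA. Both steroid groups lay wholly below BSS, by 0.88 ± 0.26 (1.84-fold) for Dex and 0.93 ± 0.26 (1.91-fold) for TAA in absolute size. Myh8 is also 1 of 8 members that the study's text named from these arrays (with Tpm3, Trdn, Asph, Sln, Chrna1, Abra and Mylpf). All 32 genes are read from the arrays that the study used, so no value given here is independent evidence.

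Myh7, the slow heavy chain, read 0.39, 0.21 and 0.34 after BSS, -1.33, -0.64 and 0.26 after Dex, and -0.13, -0.29 and -0.25 after TAA. The TAA arrays were apart from BSS with a smaller mean difference than Dex (-0.54 against -0.88), and Dex replicate 3 was inside the BSS range. Myh2, the fast oxidative heavy chain of type IIa fibres, read 0.66, 0.20 and 0.96 after BSS, 0.00, -0.32 and 0.35 after Dex, and -0.26, -1.16 and -0.32 after TAA. TAA was lower than BSS by 2.27-fold (log2 difference -1.19 ± 0.30, limma unadjusted p = 0.0014), with no overlap, and Dex gave -0.60, short of the p threshold. Myh4, the heavy chain of the fastest type IIb fibres, read 0.28, 0.17 and -0.03 after BSS, 0.45, -0.16 and 0.29 after Dex, and -0.01, -0.34 and -0.98 after TAA. Its difference met the thresholds for TAA against Dex alone among the day 7 comparisons, at their edge (-0.64 ± 0.30, unadjusted p = 0.04999). Myh1, the type IIx heavy chain, differed by -0.20 for Dex and -0.25 for TAA, neither past a threshold. In the RefSeq annotation of GRCm38.p6, Myh2 and Myh1 are direct neighbours on chromosome 11, as are Myh4 and Myh8, and Myh3 lies on the same chromosome, whereas Myh7 lies on chromosome 14.

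Among the myosin light chains, which stiffen and tune the heavy chain, slow and fast genes did not part in the same way after the 2 steroids. Myl2 minus Mylpf differed from BSS by -0.97 for Dex and 0.03 for TAA, and Myl3 minus Myl1 by -0.15 and 0.88. Myl2, the slow and cardiac regulatory light chain, read 0.37, 0.23 and 0.21 after BSS, -1.04, -1.33 and 0.11 after Dex, and -0.26, -0.59 and -0.22 after TAA. All steroid arrays were below all BSS arrays, and Dex met the thresholds (-1.02 ± 0.47, 2.03-fold lower) while TAA did not (-0.62 ± 0.47). Mylpf, the fast regulatory light chain, read 0.14, 0.29 and -0.06 after BSS, 0.43, -0.34 and 0.13 after Dex, and -0.20, -0.67 and -0.71 after TAA. Myl1, the fast essential light chain, read -0.02, 0.51 and 0.02 after BSS, 0.44, -0.25 and 0.25 after Dex, and -0.73, -0.71 and -1.01 after TAA. For both fast light chains the TAA arrays lay below BSS, by 1.57-fold for Mylpf and 1.98-fold for Myl1, and Dex was within 0.06 of BSS on the log2 scale. Myl3, the slow essential light chain, differed little: -0.17 for Dex and -0.10 for TAA.

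The troponin complex of the thin filament has 3 parts, each with a slow and a fast gene. Tnnt1, slow troponin T, which ties the complex to tropomyosin, read 0.24, 0.40 and 0.70 after BSS, -0.97, -0.90 and 0.17 after Dex, and -0.47, -1.10 and -0.67 after TAA. No steroid array reached the BSS range, and the differences were 2.02-fold for Dex and 2.29-fold for TAA. Tnnc1, slow troponin C, the calcium sensor, read 0.12, 0.44 and 0.41 after BSS, -2.58, -0.95 and 0.21 after Dex, and -0.51, -0.91 and -1.11 after TAA. Its Dex mean was 2.70-fold lower with a wide 95% interval of the log2 difference, -2.78 to -0.08, and its TAA difference of -1.17 missed the p threshold (unadjusted p = 0.086 in limma). Tnni1, slow troponin I, the inhibitory part, read 0.02, 0.67 and 0.05 after BSS, -1.92, -1.24 and 0.26 after Dex, and -0.36, -0.92 and -0.74 after TAA, and missed the threshold in both. For all 3 slow troponins Dex replicate 3 was the Dex array nearest to BSS, inside the BSS range for Tnnc1 and Tnni1 and just below it for Tnnt1.

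Tnnc2, fast troponin C, read 0.22, 0.03 and 0.02 after BSS, 0.26, -0.20 and 0.12 after Dex, and -0.29, -0.65 and -0.79 after TAA. The TAA arrays lay below every BSS and Dex array of day 7, with differences of -0.67 ± 0.16 from BSS and -0.64 ± 0.16 from Dex, while Dex minus BSS was -0.03. Tnnt3, fast troponin T, read 0.25, 0.26 and -0.04 after BSS, 0.44, -0.12 and 0.25 after Dex, and -0.23, -0.76 and -0.81 after TAA. Tnni2, fast troponin I, read 0.26, 0.12 and 0.16 after BSS, 0.52, -0.21 and 0.26 after Dex, and -0.21, -0.60 and -0.64 after TAA. The TAA arrays lay below all BSS arrays for both and below all Dex arrays for Tnnt3, while for Tnni2 TAA replicate 1 and Dex replicate 2 overlapped. TAA was lower than BSS by 1.69-fold for Tnnt3 and by 1.58-fold for Tnni2. Tnnt2, the cardiac and embryonic troponin T, had its steroid arrays below all BSS arrays with folds under 1.5 (1.29 for Dex and 1.38 for TAA), as the mean of 3 probe sets. These disagreed, with 2 lower and 1 higher in each comparison, from -0.65 to 0.03 for Dex and from -0.79 to 0.04 for TAA.

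**Figure D3:**
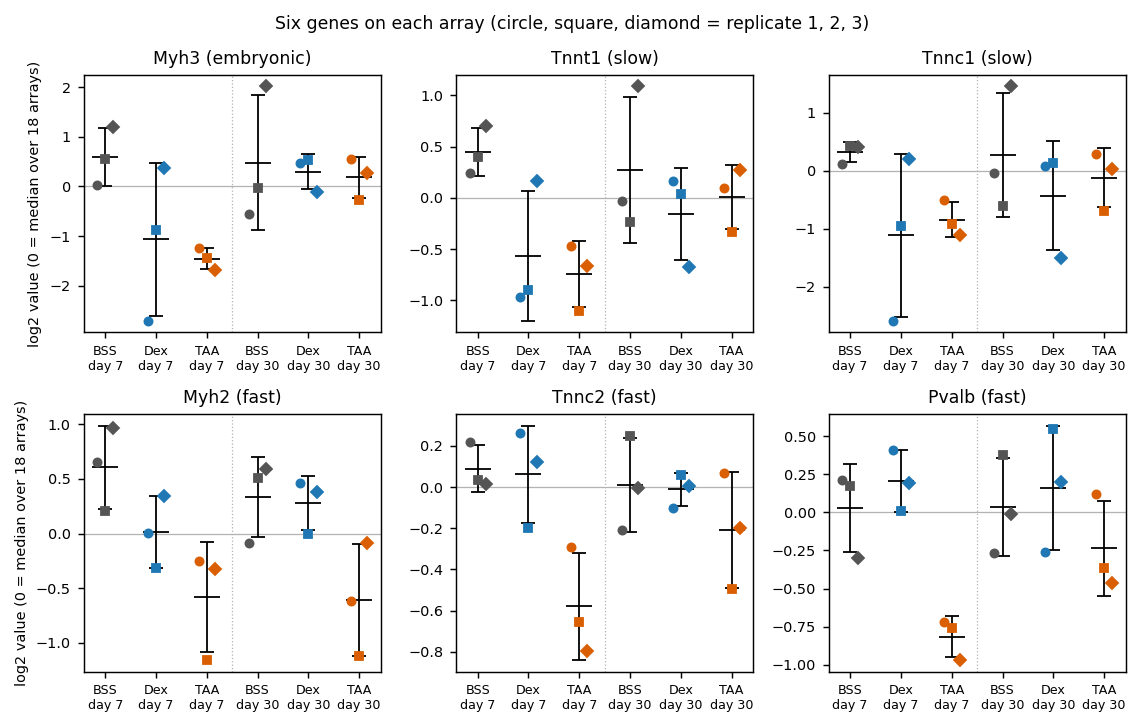
Log2 values (y axis, 0 is the median over 18 arrays; the scale differs between panels) of 6 genes on each array by group (x axis), with mean and SD of 3 arrays. Myh3, Tnnt1 and Tnnc1 are low on Dex replicates 1 and 2 of day 7 and on the TAA arrays of day 7, whereas Myh2, Tnnc2 and Pvalb are lowest on TAA arrays.

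Tropomyosin, the strand that covers the actin binding sites, gave values that depended on the probe set. Tpm3, the slow-fibre tropomyosin that other cells also use in short forms, read 0.15, 0.35 and 0.56 after BSS, -0.82, -0.59 and 0.15 after Dex, and -0.14, -0.42 and -0.22 after TAA, as the mean of 5 probe sets. The mean rested on 2 of the 5, which differed by -2.20 and -1.76 for Dex and by -1.62 and -1.55 for TAA, and the other 3 lay within -0.11 and 0.16. With the median of the probe sets in place of the mean, Tpm3 was at -0.10 for Dex and -0.15 for TAA and met no threshold. Tpm2, beta-tropomyosin, read 0.32, 0.05 and 0.36 after BSS, 0.26, -0.10 and 0.22 after Dex, and -0.23, -0.65 and -0.41 after TAA. All 4 of its probe sets were lower after TAA (-0.43 to -0.89). Acta1, skeletal actin, met no threshold, with 0.23 for Dex and -0.22 for TAA.

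The 9 genes of calcium release and uptake had median differences of 0.17 for Dex, -0.40 for TAA and -0.34 for TAA against Dex at day 7, where the thin filament genes had -0.24, -0.67 and -0.31. For Dex, 1 of 9 met the thresholds and 5 were above 0. For TAA, 3 of 9 met them and all 9 were below 0. Pvalb, parvalbumin, the calcium buffer of fast fibres, read 0.21, 0.17 and -0.30 after BSS, 0.41, 0.01 and 0.19 after Dex, and -0.72, -0.76 and -0.97 after TAA. Its TAA arrays were the lowest 3 of day 7, 1.79-fold below BSS and 2.03-fold below Dex (log2 difference -1.02 ± 0.22, limma unadjusted p = 0.00035), which was the smallest unadjusted p of any member in the day 7 comparisons. Trdn, triadin, which holds the release channel to the calcium store, read 0.45, 0.21 and 0.12 after BSS, 0.17, -0.30 and -0.02 after Dex, and -0.14, -0.34 and -0.69 after TAA, and all 6 of its probe sets were lower after TAA. Casq1, the fast calsequestrin that stores calcium, read 0.06, 0.09 and -0.38 after BSS, 0.37, -0.04 and -0.02 after Dex, and -0.35, -0.64 and -0.80 after TAA. It met the thresholds for TAA against Dex (1.63-fold lower) and had a fold of 1.44 below BSS.

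Sln, sarcolipin, the small inhibitor of the calcium pump, read 0.01, 0.62 and 0.51 after BSS, -0.98, -0.33 and 0.30 after Dex, and -0.06, -0.53 and -0.43 after TAA, the mean of 2 probe sets. The difference came from 1 of the 2, at -1.44 for Dex and -1.36 for TAA, and the other stood at 0.01 and -0.08. Asph, which makes junctin of the release complex as well as an enzyme of other tissues, read -0.07, -0.06 and -0.08 after BSS, 0.18, 0.17 and 0.09 after Dex, and -0.09, -0.25 and -0.04 after TAA. Its 6 probe sets disagreed after TAA: 2 were lower by 0.90 and 0.62 in absolute size and 4 were higher by 0.14 to 0.40, so the mean of -0.05 describes none of them. After Dex its 3 arrays lay above the 3 BSS arrays, by 0.22, with no threshold met by the mean. Of the 6 probe sets, 1 was lower and 5 were higher after Dex, from -0.08 to 0.66. The study lists the highest of them as raised by Dex at 1 week. It also lists the probe set that was lower by 0.90 after TAA as reduced by TAA at 1 week, among its calcium signalling genes. Cacna1s, the voltage sensor, Ryr1, the release channel, Atp2a1, the fast calcium pump, and Casq2, the slow and cardiac calsequestrin, met no threshold, with differences of -0.24 to 0.35 for Dex and of -0.40 to -0.10 for TAA.

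The 3 genes of the membrane and of muscle gene control were all lower after TAA at the study's thresholds and not after Dex. Chrna1, the acetylcholine receptor subunit at the nerve-muscle contact, read 0.46, 0.77 and 0.49 after BSS, -0.03, -0.03 and 0.27 after Dex, and -0.27, -0.18 and 0.04 after TAA. Both steroid groups were apart from BSS, with folds of 1.42 for Dex and 1.63 for TAA. Abra, an actin-binding activator of serum response factor signalling, read 0.33, 0.11 and 0.31 after BSS, 0.05, -0.85 and 0.33 after Dex, and -1.10, -0.89 and -1.08 after TAA, 2.42-fold below BSS. Smpx, a small protein of the muscle's attachment sites to its membrane, read 0.01, 0.58 and 0.44 after BSS, 0.24, -0.55 and 0.36 after Dex, and -0.31, -0.62 and -0.97 after TAA, 1.97-fold below BSS. Of the 3, Abra alone also met the thresholds for TAA against Dex (1.83-fold lower).

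Counting genes whose 3 arrays all lay below the 3 of the other group gave 7 members for Dex against BSS at day 7 (4.84% of all genes), 23 for TAA against BSS (6.54%) and 9 for TAA against Dex (5.09%). The Dex count leaned on single arrays: the 8 members at the study's thresholds became 1 without Dex replicate 1, 3 without Dex replicate 2 or BSS replicate 3, 5 without BSS replicate 1 or 2, and 11 without Dex replicate 3, and the methods' t-test, which uses the spread of the 2 groups alone, called 1, Myh8. The median for Dex was -0.06 without Dex replicate 2. For TAA the 17 became 11 without TAA replicate 3, and left out 1 at a time the other arrays gave 13 to 20. For TAA against Dex the 9 became 4 without Dex replicate 1 and 6 without Dex replicate 3 or TAA replicate 3, the t-test called 5, and leaving out any other array gave 7 to 12.

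Within each gene pair the slow minus fast difference on the same array carries no shift that the pair shares. Over 6 such pairs (Tnnt1 and Tnnt3, Tnni1 and Tnni2, Tnnc1 and Tnnc2, Casq2 and Casq1, Myl2 and Mylpf, Myl3 and Myl1), the mean difference was lower after Dex than after BSS at day 7 in all 6, by 0.15 to 1.41, and was higher in TAA than in Dex in all 6, by 0.54 to 1.03. For TAA against BSS the pairs were split, with lower differences for the 3 troponin pairs (-0.44, -0.26 and -0.50 for T, I and C) and higher ones for Casq2 minus Casq1 (0.12), Myl2 minus Mylpf (0.03) and Myl3 minus Myl1 (0.88). Tnnc1 minus Tnnc2 was -0.10, 0.41 and 0.39 after BSS, -2.85, -0.75 and 0.09 after Dex, and -0.22, -0.26 and -0.31 after TAA. The third Dex array was again with the BSS arrays. Myl3 minus Myl1 was 0.17, -0.40 and 0.13 after BSS, -0.56, 0.21 and -0.20 after Dex, and 0.80, 0.63 and 1.12 after TAA, with TAA above all other arrays of that day. In two-sided exact permutation tests the smallest p that 3 against 3 arrays allow is 0.1, which some pairs reached, so no pair could pass 0.05; over the 36 tests of all days the smallest adjusted p was 0.72.

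The arrays of a group were ordered differently by slow and by fast genes. Among the Dex arrays of day 7, replicate 3 was the highest for 8 of 8 slow isoforms, whereas replicate 1 was the highest for 9 of 11 fast isoforms and replicate 2 the lowest for 10 of 11. At day 30, BSS replicate 3 was the highest for 7 of 8 slow isoforms and BSS replicate 1 the lowest for 11 of 11 fast isoforms. Dex replicate 3 of day 30 was the lowest for 7 of 8 slow isoforms, and Dex replicate 1 the lowest for 9 of 11 fast isoforms. TAA replicate 2 of day 30 was the lowest for 6 of 8 slow and 10 of 11 fast isoforms. Slow and fast genes thus varied between animals of 1 group on separate arrays in 3 of these 4 groups.

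**Figure D4:**
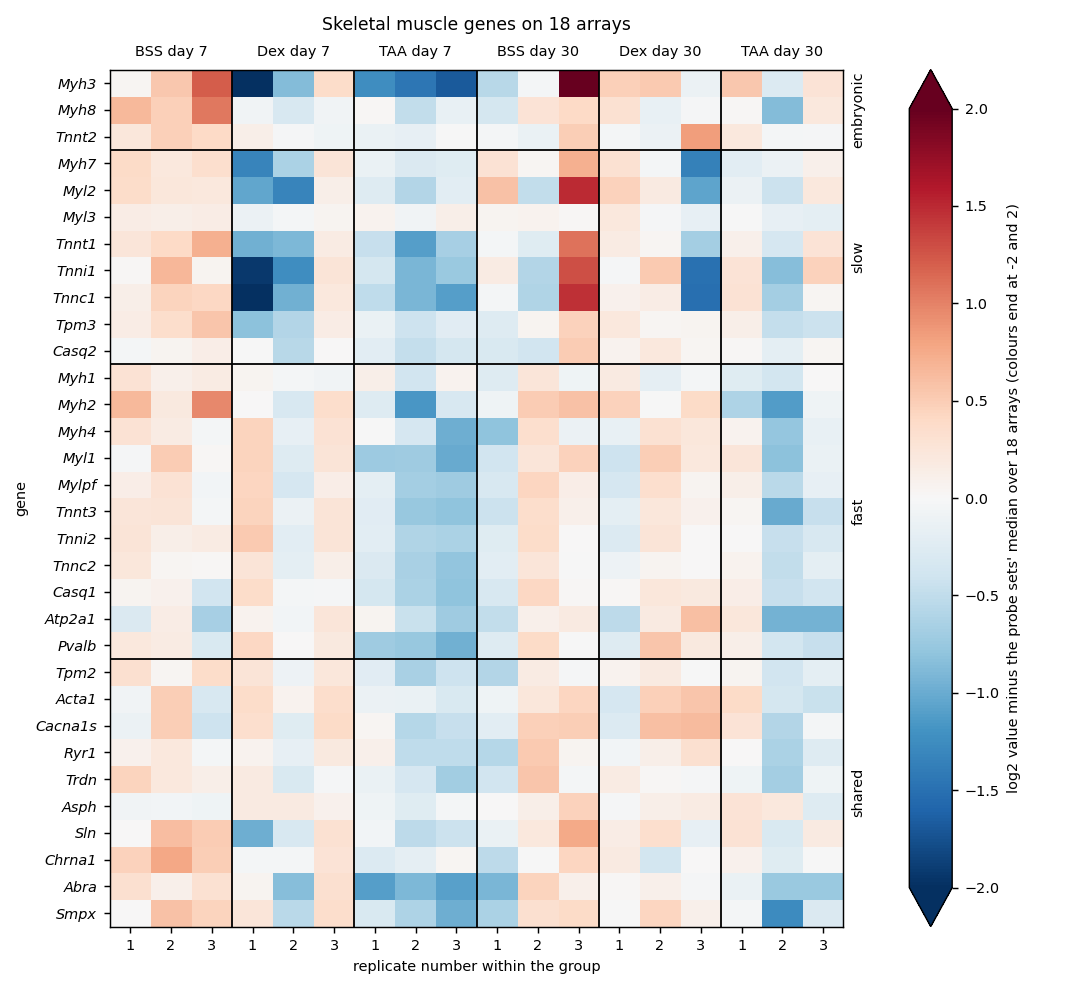
Log2 value minus the probe sets' median over 18 arrays (colour) for each of the 32 genes (y axis, by fibre-type class) on each array (x axis, by group and replicate). Slow genes are darkest blue on Dex replicates 1 and 2 of day 7 and on Dex replicate 3 of day 30, and BSS replicate 3 of day 30 is red in the embryonic and slow genes.

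At day 30 few members differed. Dex against BSS gave 0 of 32 lower at the study's thresholds (0.225% of all genes), 0 at an adjusted p under 0.05 (0% of all genes) and 0 at an unadjusted p not above 0.05 (4.7%), with a median of 0.00 and 16 members on each side of 0; the first count was 1 without Dex replicate 3 of day 7, BSS replicate 2 or Dex replicate 1 of day 30. TAA against BSS gave 1 lower at the study's thresholds (0.0989%), 0 at an adjusted p (0%) and 1 at the unadjusted p (2.57%), with a median of -0.30 and 31 of 32 below 0. That median turned to 0.05 with array weights and ran from -0.46 without BSS replicate 1 to -0.13 without TAA replicate 2 of day 30. TAA against Dex gave 1 lower (0.115%), 0 at an adjusted p (0%) and 1 at the unadjusted p (1.62%), with a median of -0.26, or -0.12 without TAA replicate 2 of day 30. The methods' t-test called 0 members in all 3, before and after adjustment. The member was Myh2 in both comparisons, at -0.08, 0.51 and 0.59 after BSS, 0.46, 0.00 and 0.38 after Dex, and -0.62, -1.12 and -0.09 after TAA. All TAA arrays lay below all BSS and Dex arrays of that day, by -0.95 ± 0.30 (1.93-fold lower) and -0.89 ± 0.30 (1.85-fold lower). Arrays wholly below the other group were found for 0 members in Dex against BSS (1.9% of all genes), 2 in TAA against BSS (2.55%; Myh2 and Myl3) and 4 in TAA against Dex (2.57%; Myh2, Trdn, Abra and Smpx). The TAA count was 4 without BSS replicate 1, 2 without BSS replicate 2 and 5 without TAA replicate 1 of day 30. Against Dex, the count was 6 without Dex replicate 1 or TAA replicate 1 of day 30, 2 without BSS replicate 1 of day 30 or Dex replicate 2 of day 7, and 0 without TAA replicate 2 of day 30.

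Whether the steroid difference changed from day 7 to day 30 was tested by the interaction contrast. For Dex, 2 of 32 members were higher at the study's thresholds (0.225% of all genes), Myh8 at 0.82 ± 0.37 and Tpm3 at 0.79 ± 0.33, with 2 at an unadjusted p not above 0.05 (2.72%) and 0 at an adjusted p (0%). For TAA, Tpm2 at 0.64 ± 0.25 and Chrna1 at 0.68 ± 0.28 were higher (0.363%), with 2 at the unadjusted p (3.04%) and 0 at an adjusted p (0%). The medians of the 32 genes were 0.30 and 0.39. Tpm3 was at 0.25 with the median of its probe sets. Without BSS replicate 1 of day 30 both counts were 0, and over all arrays left out 1 at a time they ran from 0 to 7 and from 0 to 5. Over the 3 treatments, day 30 against day 7 gave Myh3 higher by 0.96 ± 0.39, the only member at the thresholds (0.698% of all genes) and at the unadjusted p (15.3%), with 0 members at an adjusted p (0.429%). That call was absent without BSS or Dex replicate 1 of day 7 or BSS replicate 3 of day 30. The F-test over the 6 groups gave 3 members at an unadjusted p of 0.01 or less (1.32% of all genes), Myh2, Tnnc2 and Pvalb, and 0 at an adjusted p under 0.05 (0.0495%), with 14 members at an unadjusted p not above 0.05 (5.29%). The first count ran from 1 to 8 when single arrays were left out, with BSS replicate 1 of day 30 at the upper end.

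Other muscle genes were taken from lists of pathway members. Of 18 further sarcomere genes, 3 were lower after TAA at day 7 at the study's thresholds, Lmod2 and Lmod3, which seed actin filaments, and Tcap, which caps titin (-0.80, -0.68 and -0.61); 17 of 18 were below 0, with a median of -0.50. Of 19 further genes of excitation-contraction coupling, 2 were lower, Srl of the sarcoplasmic reticulum and Stac3 of the voltage sensor complex, with a median of -0.14. Of 10 muscle energy genes 1 was lower, the glycolytic Pgam2 (-0.74), with all 10 below 0, and of 9 muscle regulators 1 was, the MyoD family factor Myf6 (-0.79). Actc1, cardiac actin, was lower by 1.71 ± 0.55 in absolute size, at -2.17, 0.19 and -1.89 on the TAA arrays. Its BSS arrays read 0.58, 0.93 and -0.25, so TAA replicate 2 lay inside their range. The 4 genes of its list had a median of -0.11. After Dex at day 7, 0 genes of all 5 lists met the thresholds, and the medians were -0.05, -0.02, 0.08 and -0.20 for the 4 lists in this order and -0.04 for the list with Actc1. TAA against Dex at day 7 gave lower values for Actc1, Lmod3, Tcap, Srl, Stac3, Myf6, Pgam2, Ampd1 and the muscle creatine kinase Ckm. Over the 3 treatments, Lmod2 and Tcap were lower at day 30 than at day 7 by 0.99 ± 0.18 and 0.79 ± 0.14 in absolute size and passed the adjusted threshold (adjusted p = 0.030 and 0.024, limma), which no member of the 32 did.

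Markers of other tissues differed beside the muscle genes after TAA, and 0 genes of the fibroblast, fat, lens, rod and surface epithelium lists met the thresholds for Dex against BSS at day 7. After TAA at day 7, 2 of 12 fibroblast and tendon genes were lower at the study's thresholds, Dpt and Kera (-1.53 and -1.91), as were 2 of 6 orbital fat genes, Adipoq and Fabp4 (-2.39 and -0.84), and 4 of 9 lens crystallins, Cryba1, Cryba4, Crybb2 and Crygs (-1.36 to -2.61). Their list means on the 3 TAA arrays were -0.65, -0.01 and 0.04 for fibroblast and tendon, -0.17, -0.02 and -0.16 for fat, and between -1.81 and -0.45 for lens, against 0.12 to 0.31, -0.08 to 1.32 and -0.01 to 0.47 on the BSS arrays. For TAA against Dex at day 7, Col1a1, Dpt and Postn of the fibroblast list (-0.79, -1.25 and -1.13) and the crystallins Cryba1, Cryba4 and Crygs (-1.42 to -2.32) met them. The 10 smooth muscle and pericyte genes, the contractile cells of the choroid's own vessels, stood apart from these lists, with 5 genes on each side of 0 and a median of 0.01. At day 30 all 10 were above 0 after Dex and after TAA, with medians of 0.49 and 0.28. Higher at the study's thresholds were Myh11, Cnn1 and Smtn for Dex (0.80, 0.91 and 0.75), beside 39 of 18194 genes. For TAA these were Myh11 and Smtn (0.60 and 0.64), beside 14 of 18194. None had an adjusted p under 0.05. The list mean was -0.36 in the BSS group of day 30 and 0.04 in that of day 7. The part of these tissues in the muscle result was not tested.

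Rod photoreceptor genes were high on the Dex arrays of day 7 on which the slow muscle genes were low. The mean of 10 rod genes was 1.55, 1.85 and -0.37 on Dex replicates 1, 2 and 3, where the slow isoforms stood at -1.10, -0.78 and 0.15, and it lay between -1.58 and -0.64 on the BSS arrays. The Dex arrays of day 30 were in opposite order for both, with rod means of -1.63, 0.17 and 3.63 and slow isoforms at 0.19, 0.14 and -0.77, and of the TAA arrays of day 30 the array with the highest rod mean had the lowest slow isoforms (-0.41). BSS replicates 1 and 3 of day 30 instead had high rod means (3.82 and 3.75) with slow isoforms at 0.06 and 0.88, above those of BSS replicate 2 (rod -0.58, slow -0.27), and TAA replicate 2 of day 7 was the lowest of its group for both (-1.78 and -0.60). Surface epithelium, 8 keratin and corneal genes, was at -2.08, 1.495 and 1.78 on Dex replicates 1, 2 and 3 of day 7. Dex replicate 2 was thus high for this list and low for the slow isoforms (-0.78). On the other arrays of day 7 the list was at 1.52, -1.22 and 0.25 after BSS and at -2.01, -2.12 and -0.28 after TAA. Since the values are centred, none of these markers can be called absent on any array, and their part in the result was not tested.

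**Figure D5:**
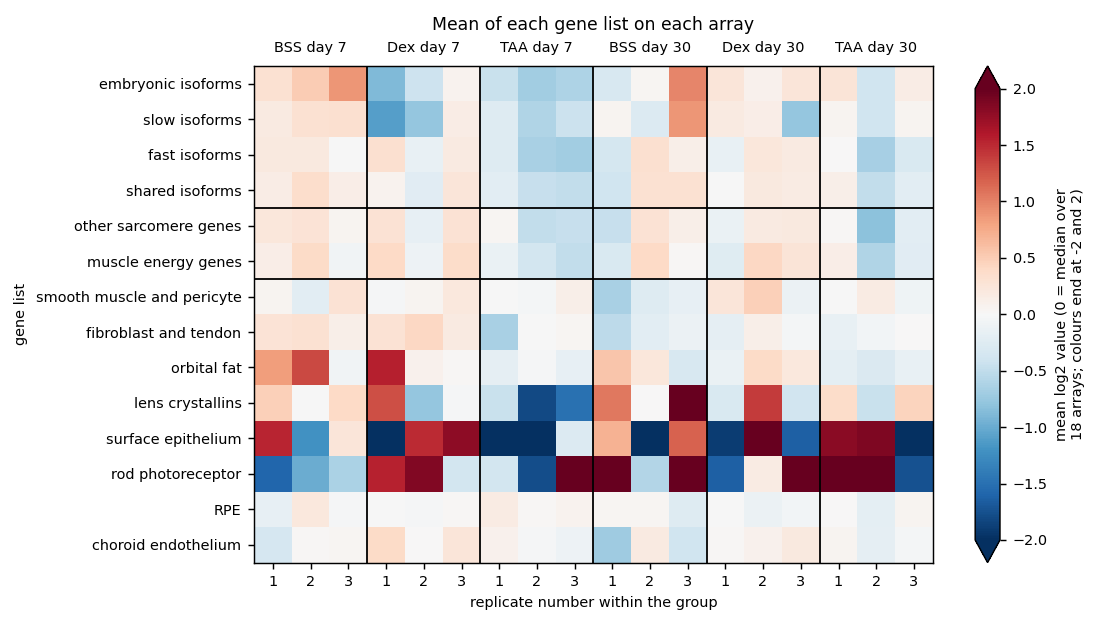
Mean log2 value (colour, 0 is the median over 18 arrays) of each gene list (y axis) on each array (x axis, by group and replicate). On the TAA arrays of day 7 the muscle lists at the top are lower than on the BSS arrays of that day, and lens crystallins lie between -1.81 and -0.45. The slow isoforms are lowest on Dex replicate 1 of day 7 (-1.10). RPE markers stay within -0.26 and 0.21 on all arrays.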

How the data were processed

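The authors hybridized RNA of RPE/choroid to 18 Affymetrix mouse genome arrays, and deposited log2 values of 45101 probe sets, made by RMA in GeneSpring GX with each probe set set to 0 at its median over the arrays; the scanner files were not used here. Since RMA shares a quantile step over the arrays, and centring removes the level, array number and not depth limits the precision, and saturation or background cannot be read. The labels name a two-cycle labelling protocol and the methods a 3′ IVT kit. Probe sets were named from the platform annotation: 34958 had 1 symbol, 932 had several and 9211 had none, and 34754 of the first matched a RefSeq gene identifier with the same symbol.

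Each gene was valued at the mean over those probe sets that name no other gene (18194 genes; 11 of the 32 members had several). Groups came from the sample titles. limma 3.58.1 in R 4.3.3 fitted 6 group means over 18 arrays (12 residual degrees of freedom) and tested the contrasts, two-sided, with Benjamini-Hochberg adjustment over all genes, and the script was tested on simulated data. Counts use an adjusted p under 0.05 and the study's unadjusted p not above 0.05 together with a fold of at least 1.5 (0.01 for the F-test). The members and lists were chosen with earlier results of these data known. Members that met the study's thresholds in a comparison, or that the study names, are given on every array, and the others by range, count or difference; Tnni1 was added after its values were seen. Of 158 list genes, 13 had no probe set of their own. Replicate numbers did not pair the samples. Alternatives were other summaries of probe sets, normalization, filters, spread, arrays and tests.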

Additional observations from a re-analysis of the deposited data

Results flagged for a closer look

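The interaction contrast asks whether the difference from BSS changed between the days. It flagged 4 of the 32 genes in limma, at an unadjusted p not above 0.05 together with a fold of at least 1.5. For Dex these were 2 genes, where 0.225% of all genes were higher, and for TAA 2, where 0.363% were. In limma, the Dex difference of day 30 minus that of day 7 was 0.82 for Myh8 (SE 0.37) and 0.79 for Tpm3 (SE 0.33), both with an adjusted p of 0.9998 over all genes. In limma, the same contrast for TAA gave 0.64 for Tpm2 (SE 0.25) and 0.68 for Chrna1 (SE 0.28), both with an adjusted p of 0.968. None passed the adjustment. On single arrays, BSS replicate 1 of day 30 read -0.36 for Myh8, -0.26 for Tpm3, -0.59 for Tpm2 and -0.52 for Chrna1, the lowest of its group for all 4 genes, and without it none of the 4 met the thresholds. Other arrays also decided them: no member met the thresholds for the Dex interaction without BSS replicate 3 or Dex replicate 1 or 2 of day 7 or Dex replicate 1 of day 30, nor for the TAA interaction without TAA replicate 2 of day 7 or TAA replicate 1 of day 30. With the median of its probe sets, Tpm3 was at 0.25.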

How the results depend on the processing

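Gene results kept their direction under every alternative that gave 1 value per gene, with 0 of 41 reversed. Of the 41, 28 fell short of the study's thresholds under at least 1 of these. For a comparison of 2 groups, only arrays of those groups were left out here. Direction was not followed for single probe sets, of which 2 of 5 for Tpm3 and 1 of 2 for Sln were above 0 for Dex at day 7. Counts of members at an adjusted p under 0.05 stayed at 0 throughout. Left out 1 array at a time, the count at the study's thresholds ran from 1 to 11 for Dex at day 7 (8 with all arrays), 11 to 20 for TAA at day 7 (17), 4 to 12 for TAA against Dex at day 7 (9), 0 to 1 for Dex at day 30 (0), 1 to 5 for TAA at day 30 (1), 0 to 6 for TAA against Dex at day 30 (1), 0 to 1 for day 30 against day 7 (1), 0 to 7 for the Dex interaction (2), 0 to 5 for the TAA interaction (2) and 1 to 8 for the F-test (3). The methods' t-test gave 1 for Dex and 5 for TAA against Dex at day 7, and 0 for TAA and for TAA against Dex at day 30, and the methods' analysis of variance gave 1. Quantile normalization gave 0 for day 30 against day 7, 7 for each interaction and 5 for the F-test. Array weights gave 0 for day 30 against day 7, 7 for the Dex interaction, 11 for the TAA interaction and 7 for the F-test, and moved the median of the members to 0.054 for TAA at day 30 (-0.30 without weights) and to 0.624 for the TAA interaction (0.39). Testing each probe set gave 2 for TAA at day 30, 2 for day 30 against day 7 and 5 for the F-test. The median of probe sets gave 1 for the Dex interaction. The cause was not tested. A prior trended on the level could not be run on centred values, so the prior was made robust alone. With the replicate block, the counts were 7, 17 and 9 in the 3 comparisons of day 7, and no count moved by over 1.5 times; deviations of same-numbered arrays correlated at a median of -0.06 (45 pairs, -0.76 to 0.62) and those of other numbers at 0.06 (90 pairs).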

Other observations

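The 2 probe sets annotated to both Myh7 and Myh6, the slow and the cardiac heavy chain, entered no gene value. They differed by -0.39 and -0.04 for Dex and by -0.28 and 0.03 for TAA at day 7, and met no threshold.

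The spread of Myh3 at day 7 differed between the groups: its SD over 3 arrays was 1.55 after Dex, 0.22 after TAA and 0.59 after BSS. This difference in spread was not tested.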
